A study of Mus musculus with 28 samples.

Results

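The genes described here are 9 chemokines and chemoattractant receptors, chosen by symbol from a table of 24391 gene symbols: the ligands Ccl2, Ccl3, Ccl4, Ccl6, Ccl9, Ccl12 and Cxcl16 and the receptors Cmklr1 and Cxcr4. All 9 were in the table. Reads were counted in motor cortex of 14 mice, each of which gave 1 TRAP library and 1 total lysate library. In TRAP (translating ribosome affinity purification), a tagged ribosome is pulled out of the lysate with the mRNA it carries, and the lysate is the whole tissue before the pulldown. The design asks which mRNAs differ after 1 h on the rotarod, in the tagged cells and in the tissue.

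All mice, controls included, had the genotype Cx3CR1-Cre/TRAPfl, in which the Cx3cr1 promoter drives Cre. In brain this promoter is active mainly in microglia, and also in border-associated macrophages and some monocytes, so the tagged ribosomes need not all be microglial. Of the mice, 7 stayed in the home cage and 7 ran on the rotarod for 1 h. Each set held 4 mice of cohort 1 and 3 of cohort 2, a number that the labels also give as the batch, and each held 4 females and 3 males by label. The 4 groups of 7 libraries are home cage TRAP, run TRAP, home cage lysate and run lysate. Pulldowns from mice without Cre were not analysed here, so a TRAP level includes whatever RNA binds without a tag.

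Chemokines are small secreted proteins that draw cells along a gradient by binding receptors coupled to G proteins. CC chemokines have their first conserved cysteines side by side, and CXC chemokines have 1 residue between them. In brain, microglia and other macrophages are a main source of several CC chemokines, and some of these (Ccl2, Ccl3, Ccl4) are also genes that rise quickly when macrophages are disturbed during tissue handling.

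The 7 ligands are shown by the stretch of coding sequence around their first cysteines, since this is where the CC and CXC classes differ and where reads of related genes could be mixed up. Each run is part of a GENCODE coding sequence, 60 bases long (63 for Cxcl16), with the codons of the cysteine pair in capitals.
Ccl2: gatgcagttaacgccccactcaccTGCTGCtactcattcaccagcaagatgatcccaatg
Ccl12: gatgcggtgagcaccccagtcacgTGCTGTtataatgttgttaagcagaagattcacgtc
Ccl6: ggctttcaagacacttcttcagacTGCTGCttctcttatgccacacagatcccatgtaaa
Ccl9: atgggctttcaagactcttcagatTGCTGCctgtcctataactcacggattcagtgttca
Ccl3: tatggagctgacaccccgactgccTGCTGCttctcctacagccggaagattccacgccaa
Ccl4: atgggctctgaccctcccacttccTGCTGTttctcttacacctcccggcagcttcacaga
Cxcl16: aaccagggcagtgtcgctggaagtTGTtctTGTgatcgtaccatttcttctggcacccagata
Identity over the whole coding sequence was counted over all aligned columns, gaps included. By this measure the closest CC pairs were Ccl3 with Ccl4 at 68.1% and Ccl6 with Ccl9 at 65.1%. Ccl2 and Ccl12 were at 48.9%, with 218 identical bases in 446 columns. Their coding sequences were 444 and 312 bases long, so gaps from the difference in length lower this value. No member shared a run of 50 exon bases with another member. The 50-base runs found in any other gene were 0% of those of Ccl2, Ccl3, Ccl4, Ccl6, Ccl12 and Cxcr4, 1.97% for Ccl9, 0.329% for Cmklr1 and 16.9% for Cxcl16.

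On GRCm38, the build of the counts, the CC members lie in 2 groups on chromosome 11. Ccl2 (82035571 to 82037453, plus strand) is 64.4 kb from Ccl12 (82101845 to 82103400, plus strand). Ccl9 (83572919 to 83578636), Ccl6 (83587882 to 83593087) and Ccl3 (83647844 to 83649355), all on the minus strand, are followed by Ccl4 (83662584 to 83664683, plus strand). Cxcl16 (chromosome 11, 70453983 to 70459984, minus strand) shares 552 exon bases with Zmynd15 on the opposite strand. The strand setting of the counting is not given in the sources used here, so Cxcl16 counts are uncertain there, while Zmynd15 itself was at 0.0256 to 2.78 CPM in TRAP. Cmklr1 lies on chromosome 5 (113612354 to 113650426, minus strand) and Cxcr4 on chromosome 1 (128588199 to 128592293, minus strand). Each is protein coding.

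Total counts ran from 70090518 to 241381845 per library. The labelled cell type was checked by 19 homeostatic microglia genes, which summed to 46900 to 101000 CPM in TRAP and 707 to 993 CPM in lysate. TRAP also held markers of other cells. The 10 endothelial genes summed to 213 to 934 CPM in TRAP and 80.1 to 186 CPM in lysate. Lower in TRAP but still counted were 11 neuron genes, at 2210 to 8880 CPM beside 9180 to 17800 CPM in lysate. The 9 astrocyte genes were at 1700 to 3360 CPM beside 3640 to 4190 CPM. CPM are read counts scaled to library size with TMM factors over all 28 libraries. This sets levels side by side, and small differences between the fractions depend on it. In 2 of the cohort 2 runners, Y-linked genes went against the sex on the label in both fractions. In bulk tissue, fewer cells of a type and less RNA per cell cannot be told apart.

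Every member was higher in TRAP than in lysate. The edgeR quasi-likelihood test over all 28 libraries called 9 of 9 higher, where 34.0% of the 16716 genes tested were called higher and 40.1% lower. The median log2 fold of the members was 5.71, beside -0.20 over all genes tested and 6.55 over the homeostatic microglia genes. Every TRAP library lay above every lysate library for 7 members, the exceptions being Ccl2 and Cxcr4, and 12.2% of tested genes had this separation.

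**Figure D1:**
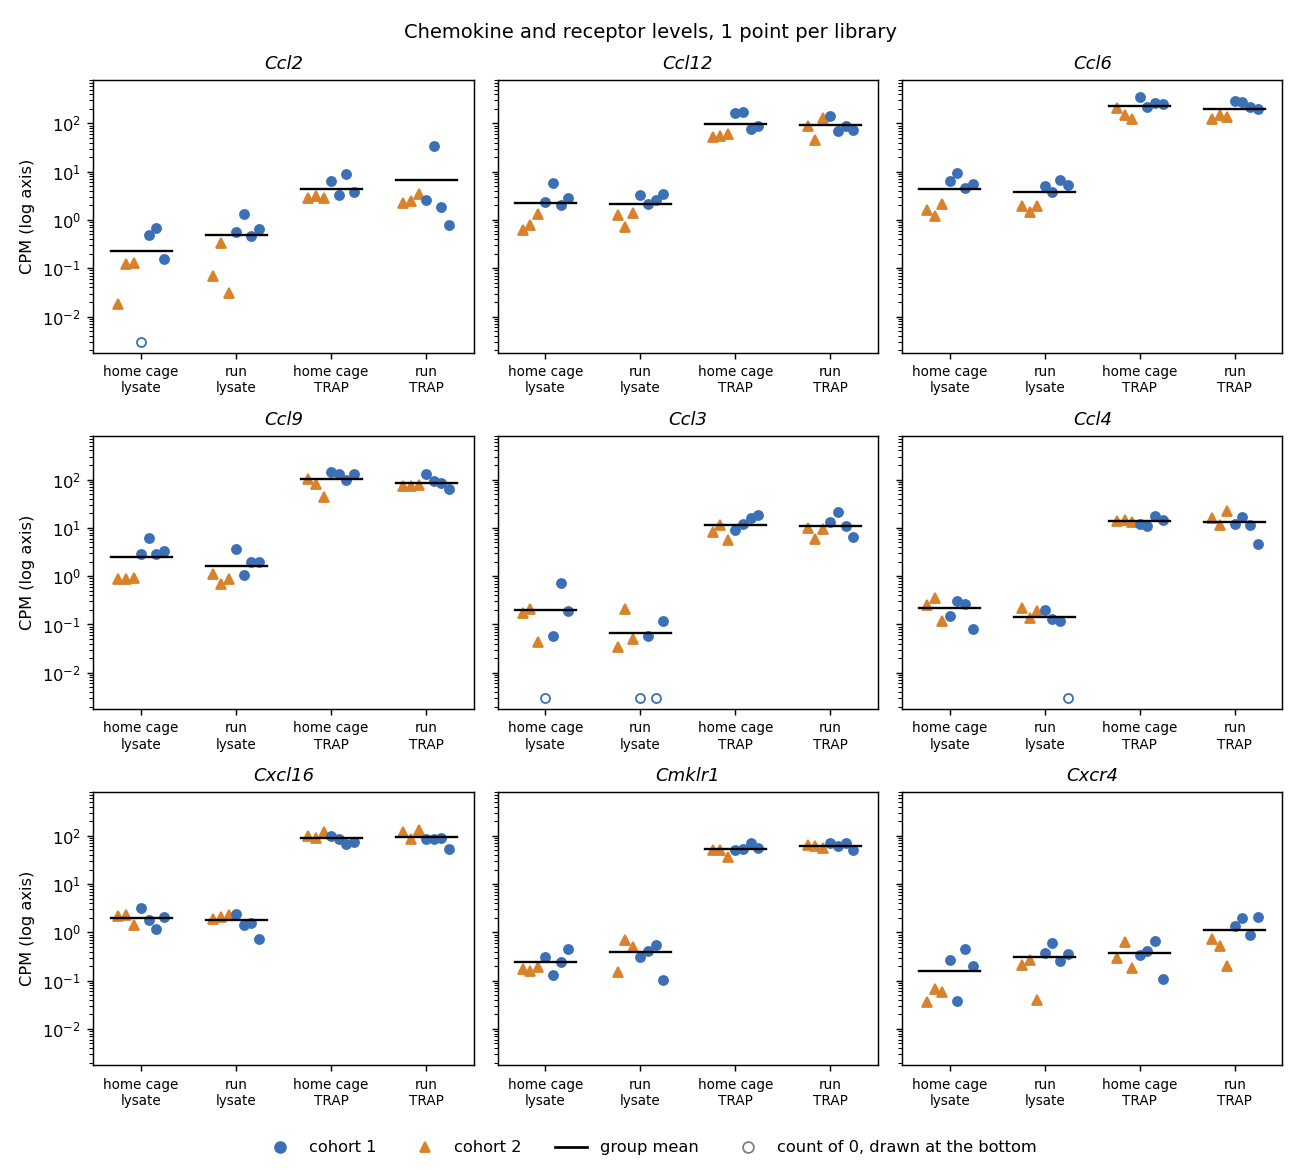
Level of each member in CPM on a log axis, 1 point per library, in the 4 groups, with circles for cohort 1, triangles for cohort 2 and a line at the group mean. Open points at the bottom are libraries with a count of 0, and the 2 TRAP columns do not overlap the lysate columns except for Ccl2 and Cxcr4.

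Of the monocyte-attracting ligands, Ccl2 is the classical ligand of the receptor Ccr2, and Ccl12 is a second mouse ligand of it. Ccl2 in home cage TRAP was between 2.79 and 8.95 CPM with a median of 3.28, and in home cage lysate between 0 and 0.680 with a median of 0.126. In run TRAP it was between 0.802 and 34.7 CPM with a median of 2.42, and in run lysate between 0.0305 and 1.31 with a median of 0.472. The ranges of the fractions overlapped, and TRAP was higher within each of the 13 mice with a lysate count above 0. The fold over lysate was 4.23 ± 0.55 on the log2 scale (SE, n = 14 libraries a fraction; edgeR adjusted p = 4.56e-08), the lowest of the 7 ligands.

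Ccl12 was far more abundant. It had 51.0 to 173 CPM in home cage TRAP (median 75.7) and 45.0 to 143 in run TRAP (median 87.0). Lysate held 0.628 to 5.73 in home cage mice (median 2.08) and 0.712 to 3.42 in run mice (median 2.12). No TRAP library overlapped a lysate library, and the log2 fold was 5.58 ± 0.25 (edgeR adjusted p = 1.18e-18).

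Ccl6 and Ccl9 are CC chemokines found in rodents, with ligand activity at Ccr1. Ccl6 in TRAP was 121 to 357 CPM in home cage mice (median 223) and 125 to 291 in run mice (median 201). Its lysate levels were 1.24 to 9.33 (median 4.60) and 1.49 to 6.57 (median 3.75). Its log2 fold over lysate was 5.87 ± 0.17. Ccl9 in TRAP was 42.6 to 142 CPM in home cage mice (median 100.4) and 64.1 to 128 in run mice (median 75.6), and its lysate levels were 0.859 to 6.24 (median 2.82) and 0.673 to 3.72 (median 1.13). Its log2 fold was 5.71 ± 0.24, close to that of Ccl6.

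Ccl3 and Ccl4 are also called MIP-1 alpha and beta, and Ccl3 binds Ccr1. Ccl3 in TRAP was 5.63 to 18.8 CPM in home cage mice (median 11.3) and 5.97 to 20.9 in run mice (median 10.1). In lysate it was hardly counted, with 0 reads in 3 of 14 libraries and 6 to 71 in the others. A count of 0 there allows up to 3 reads by counting error, so the fold of 6.51 ± 0.50 on the log2 scale is set by few lysate reads. Ccl4 in TRAP was 10.9 to 17.5 CPM in home cage mice (median 13.8) and 4.56 to 22.8 in run mice (median 11.8). Its lysate levels were 0.0787 to 0.360 (median 0.254) and 0 to 0.214 (median 0.138), for a log2 fold of 6.28 ± 0.31.

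Cxcl16 is a CXC chemokine made with a membrane anchor and is the ligand of Cxcr6. It was 67.4 to 121 CPM in home cage TRAP (median 87.9) and 52.8 to 130 in run TRAP (median 87.5). Lysate levels were 1.15 to 3.18 (median 2.08) and 0.725 to 2.39 (median 1.86). The log2 fold of 5.59 ± 0.17 was as narrow as that of Ccl6.

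The receptors stood at opposite ends. Cmklr1, the receptor for chemerin, had the highest TRAP over lysate fold of the 9, at 7.56 ± 0.24 on the log2 scale (edgeR adjusted p = 9.93e-23). Its TRAP levels were 35.8 to 70.9 CPM in home cage mice (median 51.5) and 51.4 to 71.7 in run mice (median 61.6), and its lysate levels were 0.133 to 0.443 (median 0.194) and 0.104 to 0.683 (median 0.417). The ratio within a mouse ran from 89.6 to 496 with a median of 210.0.

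Cxcr4, the receptor for Cxcl12, had the lowest fold, at 1.70 ± 0.44 (edgeR adjusted p = 0.00109). It was counted 12 to 226 times per TRAP library and 4 to 65 times per lysate library. TRAP levels were 0.107 to 0.649 CPM in home cage mice (median 0.341) and 0.197 to 2.06 in run mice (median 0.898), beside 0.0369 to 0.453 (median 0.0663) and 0.0406 to 0.616 (median 0.267) in lysate. TRAP was higher in 13 of 14 mice, with within-mouse ratios of 0.542 to 10.8. In home cage libraries alone the call was lost (1.55 ± 0.78, edgeR adjusted p = 0.0886), and in cohort 1 alone too (1.31 ± 0.60, adjusted p = 0.0635).

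**Figure D2:**
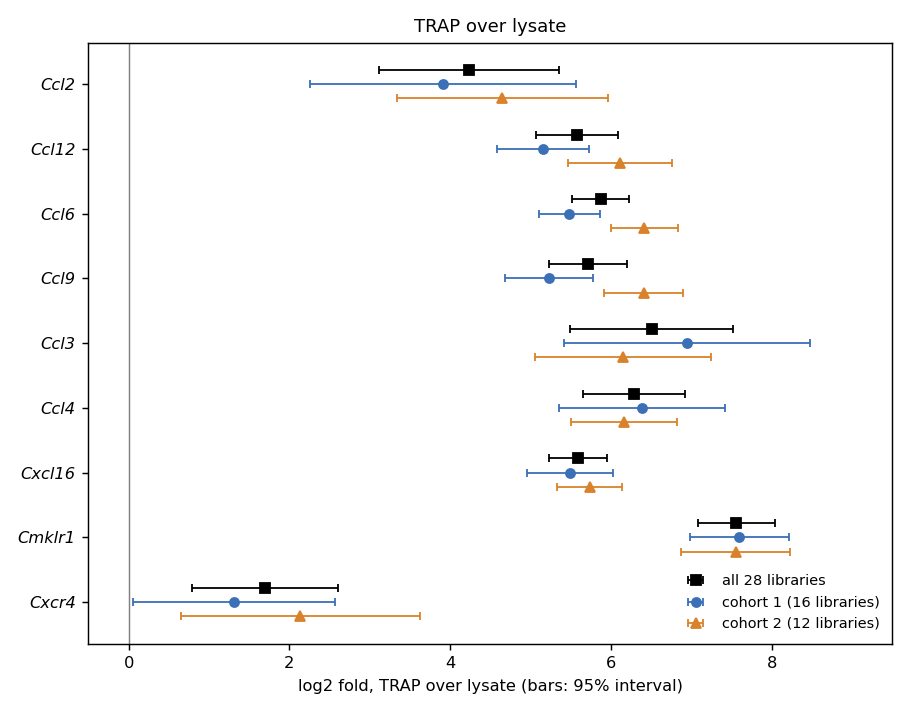
Log2 fold of TRAP over lysate for each member with its 95% interval, over all 28 libraries (black squares), in cohort 1 (blue circles) and in cohort 2 (orange triangles). Cmklr1 sits farthest to the right at 7.56 and Cxcr4 farthest to the left at 1.70.

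Per kilobase of exon, Ccl12 was the most abundant member in TRAP at 173 ± 78.7 CPM per kb (SD, n = 14), and Ccl6 followed at 118 ± 39.7, below it in 11 of 14 libraries. Ccl9 (31.0 ± 9.65) and Cxcl16 (30.2 ± 6.94) did not differ beyond their spread, with Cxcl16 the lower in 8 of 14 libraries. Ccl4 was at 20.7 ± 6.22, below Cxcl16 in 13 of 14 libraries. Cmklr1 at 16.9 ± 2.93 was below Ccl4 in 10 of 14, and Ccl3 at 14.7 ± 6.01 was below Cmklr1 in 12 of 14, with means that differed by less than the larger SD. Ccl2 at 4.98 ± 7.55 CPM per kb came next, its mean carried by 1 library, and Cxcr4 at 0.409 ± 0.349 was last. In lysate Ccl12 (4.05 ± 2.57) and Ccl6 (2.27 ± 1.37) also led, while Cmklr1 was last at 0.0917 ± 0.0526 CPM per kb.

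Some partners of these ligands and receptors were read in the same libraries and chosen after their values were seen. Ccr1 was 5.29 ± 0.53 higher in TRAP than in lysate on the log2 scale and Ccr2 5.94 ± 0.58 higher, both called. Cxcr6, the receptor of Cxcl16, was at 0 in 11 of 14 TRAP libraries and at most 0.441 CPM in the others. Cxcl12, the ligand of Cxcr4, was counted in both fractions and called 0.37 ± 0.11 higher in TRAP. Rarres2, which encodes chemerin, was not called different (-0.31 ± 0.18, edgeR adjusted p = 0.107). Folds this small depend on how the fractions are scaled to each other. Over library totals without TMM, 3903 genes were called higher in TRAP and 9488 lower, beside 5679 and 6698 with TMM. Cxcl12 and Rarres2 were not read under that scaling.

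Among the other 16 CC chemokines, 9 could be tested, of which 5 were called higher in TRAP and 2 lower. Over all 16716 genes tested, 34.0% were called higher and 40.1% lower, and the counts of each list stand beside these shares. Ccl24 (6.12 ± 0.34), Ccl8 (5.98 ± 0.30) and Ccl5 (5.44 ± 0.60) were highest on the log2 scale, while Ccl25 (-1.57 ± 0.15) and Ccl27a (-1.48 ± 0.10) were lower. Of 11 tested CXC, CX3C and XC chemokines, 6 were called higher and 1 lower. Cxcl9 (6.65 ± 0.90), the platelet factor Pf4 (6.41 ± 0.15) and the B cell attractant Cxcl13 (4.81 ± 0.89) led, and Cx3cl1, the neuronal ligand of Cx3cr1, was lower (-1.80 ± 0.12). Cxcl9 was sparsely counted, with an average log2 CPM of -0.39. Pf4 is also on the list of 11 border-associated macrophage genes, all of which were called higher in TRAP, with a summed level of 912 to 1890 CPM in TRAP and 16.6 to 28.3 CPM in lysate. The part of border macrophages in the levels of the members was not tested.

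Of 13 tested chemokine receptors, 11 were called higher, led by Cx3cr1 (6.92 ± 0.14), Ccr2 and the Cxcl9 receptor Cxcr3 (5.86 ± 0.61), and 0 were called lower. The shares over all tested genes were again 34.0% higher and 40.1% lower. The list of atypical and scavenging receptors, most of which bind chemokines without signalling through G proteins, mostly went the other way. Of 6, 1 was called higher, Ccrl2 (3.45 ± 0.33), and 5 lower, among them Ackr4 (-3.32 ± 1.26), Pitpnm3 (-1.56 ± 0.19) and Ackr2 (-1.26 ± 0.33). Ackr4 averaged a log2 CPM of -3.10 and was at 0 in every run TRAP library, so its fold rests on few reads. Of 13 other chemoattractants and their receptors, 8 were called higher and 0 lower, with the complement receptors C3ar1 (6.74 ± 0.32) and C5ar2 (6.63 ± 0.29) and the MIF receptor Cd74 (6.62 ± 0.19) at the top. Of 26 signalling genes downstream of chemokine receptors, 20 were called higher and 4 lower. Rac2 (6.87 ± 0.13), the kinase Pik3cg (5.81 ± 0.23) and Dock2 (5.41 ± 0.19) were highest, and the G protein regulators Rgs16 (-2.30 ± 0.34) and Rgs14 (-1.38 ± 0.11) and the kinase Ptk2b (-0.43 ± 0.09) were lower.

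After 1 h on the rotarod, no member was called different from home cage in TRAP or in lysate. In TRAP, edgeR called 0 of 9 members, where 0.0460% of 15203 tested genes were called, and 0 members had an unadjusted p under 0.05. In lysate it called 0 of the 8 members tested, where 0.0311% of 16091 genes were called, and again 0 had an unadjusted p under 0.05. DESeq2 called 0 members in either fraction. Ccl3 did not reach the count filter in lysate.

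For the well counted members the intervals were narrow. In TRAP the log2 fold of run over home cage was 0.03 ± 0.14 for Cxcl16 (95% interval -0.26 to 0.32), -0.18 ± 0.14 for Ccl6 (-0.47 to 0.10) and -0.26 ± 0.17 for Ccl9 (-0.62 to 0.10). Ccl3 was at -0.05 ± 0.26, Ccl4 at -0.06 ± 0.25 and Ccl12 at 0.03 ± 0.25. The intervals of the last 3 were wider, at -0.58 to 0.49, -0.57 to 0.46 and -0.50 to 0.56.

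Cmklr1 in TRAP had a log2 fold of 0.26 ± 0.13 (-0.02 to 0.53, edgeR adjusted p = 0.999). In cohort 2 its 3 run libraries, at 57.1 to 63.0 CPM, lay above its 3 home cage libraries, at 35.8 to 50.5, and 4.56% of tested genes had this separation in that cohort. Of these 3 run libraries, 2 came from the mice with a label mismatch, and the remaining one held 61.2 CPM. In cohort 1 the ranges overlapped, at 51.4 to 71.7 and 51.5 to 70.9 CPM, and without the mismatched mice the fold over both cohorts was 0.23 ± 0.13. In lysate, where it was counted 14 to 138 times per library, the log2 fold was 0.74 ± 0.55 and was not called.

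Cxcr4 had the largest fold of the members in TRAP, 1.34 ± 0.67 on the log2 scale (-0.06 to 2.74, edgeR adjusted p = 0.999). In cohort 1 the 4 run libraries held 0.898, 1.33, 1.98 and 2.06 CPM, and the 4 home cage libraries 0.107, 0.341, 0.410 and 0.649. These did not overlap, as was the case for 1.45% of tested genes in the same direction, and the fold within cohort 1 was 2.07 ± 0.84 (edgeR adjusted p = 1). In cohort 2 the run libraries at 0.197, 0.530 and 0.737 CPM overlapped the home cage libraries at 0.181, 0.299 and 0.644, with a fold of 0.36 ± 1.03. The difference between the cohorts was -1.69 ± 1.34 (edgeR adjusted p = 0.883), so it was not shown. Without the mismatched mice, which are 2 of the 3 runners of cohort 2, the fold over both cohorts was 1.71 ± 0.78 (edgeR adjusted p = 0.916). In lysate the log2 fold was 1.14 ± 0.61 (adjusted p = 0.681), with ranges that overlapped.

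The genes whose TRAP levels followed Cxcr4 most closely over 14 libraries, after subtraction of the mean of each library's cohort and activity, were Sema6d (r = 0.926), Ppp4r4 (0.906) and the endothelial gene Vwf (0.894), of 11602 genes searched. The 10 endothelial markers were present in every group, and all 10 were called higher in TRAP than in lysate, as were 34.0% of tested genes. Their median log2 fold was 1.90, beside 1.70 for Cxcr4 and 6.55 for the homeostatic microglia genes. In cohort 1 the endothelial markers summed to 243 to 278 CPM in run TRAP and 213 to 396 CPM in home cage TRAP. In cohort 1 Vwf was at 1.11 to 2.93 CPM in run TRAP and 2.03 to 6.66 CPM in home cage TRAP. The 9 lymphocyte markers summed there to 0.465 to 2.80 CPM in run TRAP and 0.551 to 1.90 CPM in home cage TRAP. In TRAP of cohort 2, Vwf was at 10.6 to 25.1 CPM and the endothelial markers summed to 704 to 934 CPM, with Cxcr4 at 0.181 to 0.737 CPM. The part of these cells in the Cxcr4 level was not tested.

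Ccl2 turned on 1 library. In run TRAP, the library labelled Female2 of cohort 1 held 3116 reads (34.7 CPM), and the other 6 held 0.802 to 3.41 CPM. The lysate of this mouse was also the highest of the run lysates, at 138 reads and 1.31 CPM. With it the log2 fold of run over home cage was 0.44 ± 0.61, and without this mouse it was -0.97 ± 0.40 (edgeR adjusted p = 0.999), so that the direction of Ccl2 depends on this mouse. Ccl7, a close relative of Ccl2 and the gene with the most similar TRAP pattern (r = 0.977), was at 44.0 CPM in the same library and 2.41 to 14.1 CPM in the other TRAP libraries. Ccl3, at 20.9 CPM in this library, was also at its highest of the 14 TRAP libraries. Ccl4 in it was the highest among run TRAP libraries of cohort 1 (16.5 CPM), though not among all 14. In that library the 7 monocyte markers summed to 24.4 CPM, beside 8.05 to 24.6 CPM over all TRAP libraries, and the 8 neutrophil markers to 0. The 11 border-associated macrophage markers summed to 1890 CPM there, the highest of the 14 TRAP libraries. Its 21 genes of ex vivo activation summed to 1960 CPM, within the 1606 to 2133 CPM of the run TRAP libraries and above the 1500 to 1950 CPM of the home cage TRAP libraries. The part of these cells in the Ccl2 level was not tested.

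**Figure D3:**
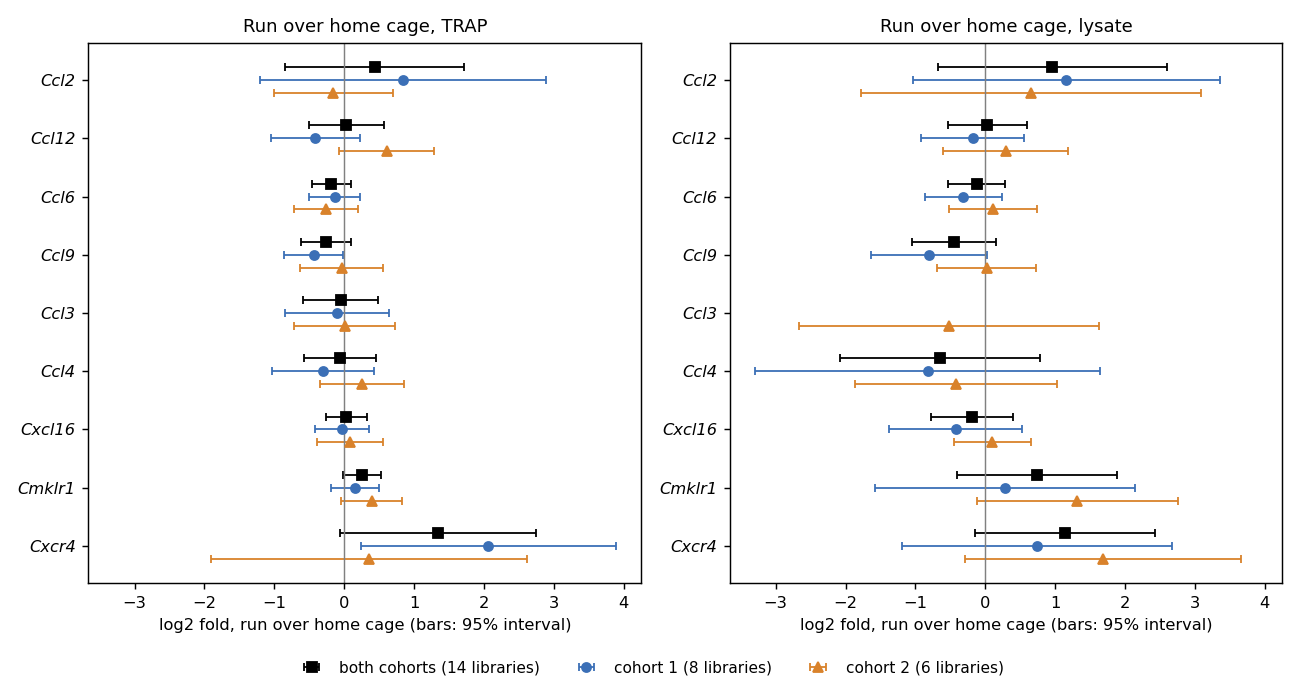
Log2 fold of run over home cage for each member with its 95% interval, in TRAP (left) and lysate (right), over both cohorts (black) and in each cohort (cohort 1 blue, cohort 2 orange). The intervals over both cohorts include 0 for every member shown, and Cxcr4 in TRAP is the farthest from 0 at 1.34.

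The run effect was also compared between fractions and between cohorts. The run effect in TRAP minus that in lysate was called for 0 of 9 members and for 0% of the 16716 genes tested by edgeR, with 0 members at an unadjusted p under 0.05, and DESeq2 also called 0 members. Ccl3 had the largest difference, 1.29 ± 0.83, and rests on its few lysate reads. The run effect in cohort 2 minus cohort 1 was called for 0 members in TRAP and 0 in lysate by edgeR, where 0% of genes were called in either, and 1 and 0 members had an unadjusted p under 0.05. The 1 was Ccl12 in TRAP, at 1.02 ± 0.46 (adjusted p = 0.867), with a run effect of -0.41 ± 0.29 in cohort 1 and 0.61 ± 0.31 in cohort 2. Leaving out both runners with a label mismatch brought this difference to 0.11 ± 0.50. That value rests on 1 run library in cohort 2, which at 45.0 CPM held the lowest Ccl12 of all TRAP libraries. It cannot tell whether the mismatched mice account for the difference.

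Of the other chemokine system genes in the lists, 1 was called in a run comparison. Rgs1, a regulator that dampens chemokine receptor signalling, was 1.61 ± 0.24 higher in run TRAP (edgeR adjusted p = 0.0123). It was at 20.6 to 34.4 CPM in run TRAP and 4.52 to 11.1 CPM in home cage TRAP of cohort 1. In cohort 2 these were 5.71 to 13.8 and 2.06 to 4.65 CPM. The ranges did not overlap within either cohort, as for 1.45% of tested genes in cohort 1 and 4.56% in cohort 2. Without a cohort term, and in either cohort alone, 0 genes were called between run and home cage TRAP, so the call of Rgs1 was lost there. Next by p in TRAP were Ccr1 (-0.89 ± 0.31) and Ccl8 (0.51 ± 0.21), both at an adjusted p of 0.999. In lysate the smallest p were of Cxcl14 (0.25 ± 0.08), Ccr2 (-2.67 ± 1.01) and the Cxcl12 scavenger Ackr3 (0.34 ± 0.13), with adjusted p of 0.568 to 0.635.

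Several ligands differed between cohorts within a fraction, a comparison added after the data were seen. In TRAP, 4 of 9 members were called lower in cohort 2 than in cohort 1 and 1 higher, beside 31.6% of tested genes lower, 33.6% higher and 65.2% in either direction. In lysate 5 of 8 were called, all lower, beside 35.1% of tested genes lower and 71.4% in either direction. The total share called among members was near or below that of all genes.

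Ccl6 was lower in cohort 2 by a log2 fold of -0.82 ± 0.14 in TRAP (edgeR adjusted p = 4.35e-05) and -1.77 ± 0.21 in lysate (3.56e-07). In lysate its cohort 1 libraries held 3.75 to 9.33 CPM and its cohort 2 libraries 1.24 to 2.15, without overlap, which 21.6% of tested genes showed in that direction. Ccl9 was at -0.52 ± 0.18 in TRAP and -1.73 ± 0.31 in lysate, and Ccl12 at -0.62 ± 0.26 and -1.62 ± 0.29, all called. Without the 2 mice with a label mismatch, Ccl12 in TRAP was at -1.22 ± 0.24. Ccl12 also did not overlap between cohorts in lysate, with 2.08 to 5.73 CPM against 0.628 to 1.37.

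The other members were less even. Ccl3 was called lower in TRAP (-0.66 ± 0.26) and Ccl2 (-2.16 ± 0.84) and Cxcr4 (-1.67 ± 0.64) in lysate, while Cxcl16 was called higher in TRAP (0.43 ± 0.14). Cmklr1 and Ccl4 were called in neither fraction. Without the 2 mice with a label mismatch, Ccl2 (-1.67 ± 0.95) and Cxcr4 (-1.57 ± 0.78) in lysate kept most of their size but were no longer called, Cxcl16 in TRAP (0.18 ± 0.16) was not called either, and Cmklr1 in TRAP was (-0.35 ± 0.14, edgeR adjusted p = 0.0472). In home cage libraries alone, Ccl3 (-0.72 ± 0.32) and Cxcl16 (0.37 ± 0.18) in TRAP and Ccl2 (-1.92 ± 1.37) and Cxcr4 (-2.16 ± 1.03) in lysate were not called. Transcript GC content was 42.1% for Ccl9 and Ccl12, 44.3% for Ccl2 and 45.1% for Ccl6, beside a median of 49.9% over the genes tested in TRAP, and 49.8% for Cxcl16 and 54.7% for Cmklr1. Its part in the cohort difference was not tested.

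**Figure D4:**
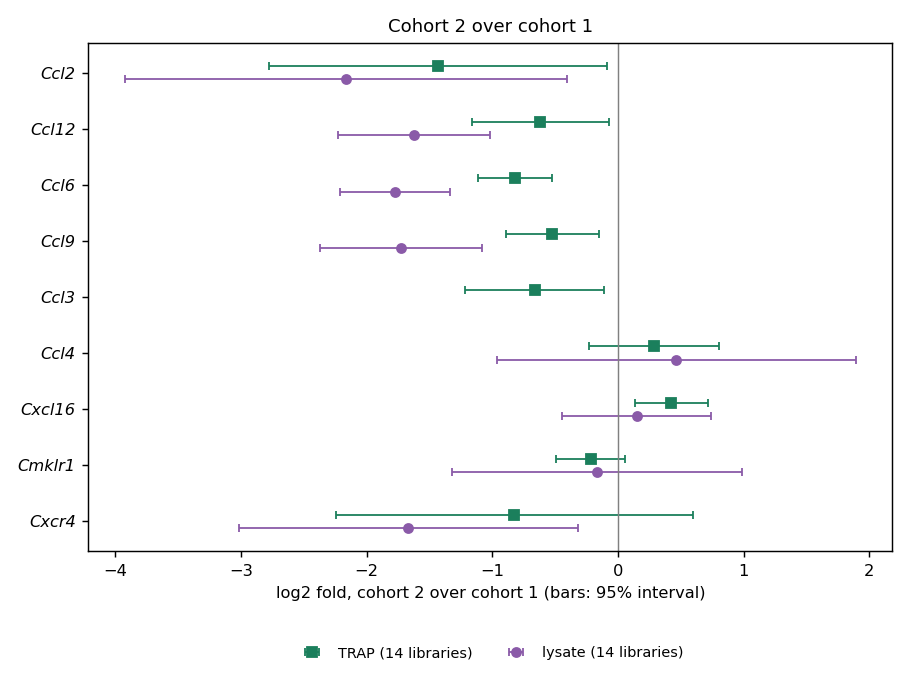
Log2 fold of cohort 2 over cohort 1 for each member with its 95% interval, in TRAP (green squares) and lysate (purple circles), 14 libraries each. Ccl6, Ccl9 and Ccl12 lie left of 0 in both fractions and farther left in lysate.

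The larger lysate difference left the TRAP over lysate ratio higher in cohort 2 for these ligands. The difference of the log2 ratio, cohort 2 minus cohort 1, was 0.92 ± 0.23 for Ccl6 (edgeR adjusted p = 0.00426) and 1.19 ± 0.33 for Ccl9 (0.00958), 2 of 9 members, beside 8.41% of genes called in this direction and 20.3% in either. Ccl12 was at 0.96 ± 0.38 and was not called (adjusted p = 0.0741), but was called with a replicate block on the mouse (0.96 ± 0.22, edgeR adjusted p = 0.0054). Without the runners with a label mismatch, Ccl6 was at 1.04 ± 0.26 and Ccl9 at 1.22 ± 0.37, both still called, and Ccl12 at 0.73 ± 0.36 (edgeR adjusted p = 0.202). The other 6 were not called, with log2 differences from -0.51 for Ccl3 to 0.82 for Cxcr4.

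Ccl6, Ccl9 and Ccl12, which were called lower in cohort 2 in both fractions, are shown by the 250 bases before their RefSeq start sites (GRCm38.p6), with GGAAGT, a motif of the GGAA type that ETS factors such as PU.1 bind, and TATAAA in capitals, on either strand.
Ccl6 (chr11:83593088-83593337, minus strand): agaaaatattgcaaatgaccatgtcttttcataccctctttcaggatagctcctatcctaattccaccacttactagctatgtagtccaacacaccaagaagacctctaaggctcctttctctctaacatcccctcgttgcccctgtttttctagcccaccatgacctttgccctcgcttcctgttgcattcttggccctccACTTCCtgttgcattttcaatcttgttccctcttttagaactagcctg
Ccl9 (chr11:83578637-83578886, minus strand): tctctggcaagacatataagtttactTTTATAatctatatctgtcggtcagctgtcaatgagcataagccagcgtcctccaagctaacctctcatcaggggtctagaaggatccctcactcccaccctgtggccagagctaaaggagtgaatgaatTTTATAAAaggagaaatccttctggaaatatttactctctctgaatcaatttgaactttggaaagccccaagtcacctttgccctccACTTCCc
Ccl12 (chr11:82101595-82101844, plus strand): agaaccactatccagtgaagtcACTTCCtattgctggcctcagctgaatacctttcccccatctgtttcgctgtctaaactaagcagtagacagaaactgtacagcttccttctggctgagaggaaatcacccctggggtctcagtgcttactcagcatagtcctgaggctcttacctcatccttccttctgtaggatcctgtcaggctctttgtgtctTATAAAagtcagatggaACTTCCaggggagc
Of the 27025 promoters in the RefSeq set, 20.0% held GGAAGT in the same window and 13.0% held TATAAA. Of the 6 members with a promoter there, 4 held GGAAGT (Ccl3, Ccl6, Ccl9 and Ccl12) and 3 held TATAAA (Ccl9, Ccl12 and Cxcr4). An NF-kappaB-type pattern (GGG and CC with 5 bases between), found in 45.4% of promoters, and TGANTCA, found in 6.87%, were also searched, and 2 and 1 of the 6 members held them. A match describes these letters and is no evidence of binding.

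Whether members vary together from library to library was read after subtracting the mean of each cohort and activity, and no pair passed the test. Over 14 TRAP libraries, Pearson's r was 0.825 for Ccl3 and Ccl4 (permutation p = 0.00467, adjusted over the 36 pairs p = 0.168), with Spearman's rho 0.754 (permutation p = 0.00557, adjusted 0.201). Without the 2 libraries farthest from the median of Ccl3, r was 0.664, and it was 0.892 in cohort 1 and 0.611 in cohort 2. Ccl6 and Ccl9 had an r of 0.713 (permutation p = 0.0403, adjusted 0.292) and a rho of 0.679 (permutation p = 0.0478, adjusted 0.319), and 0.660 without the 2 farthest libraries. Ccl2 and Ccl12 did not vary together, with an r of -0.133 (permutation p = 0.654, adjusted 0.813) and a rho of -0.068 (permutation p = 0.818, adjusted 0.927). Of the 36 pairs, 0 had an adjusted p under 0.05 in TRAP and 0 in lysate, where r was -0.051 for Ccl3 and Ccl4. All pairs share libraries and their scaling.

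**Figure D5:**
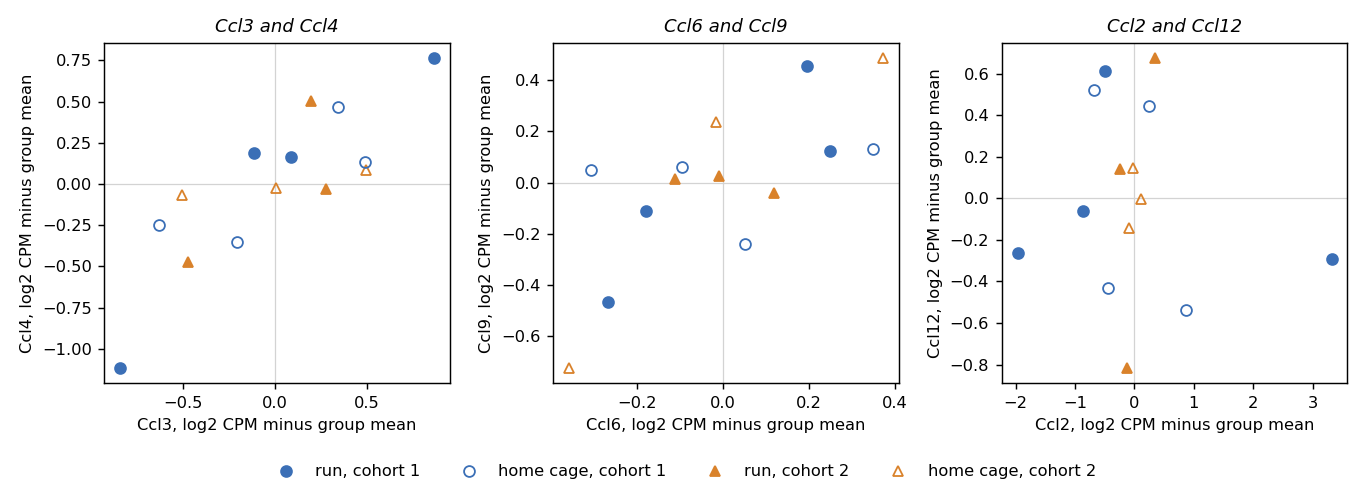
Level of 1 member against another in the 14 TRAP libraries, as log2 CPM minus the mean of the library's cohort and activity, with filled points for run, open points for home cage, circles for cohort 1 and triangles for cohort 2. Ccl3 and Ccl4 follow a line (r = 0.825), Ccl6 and Ccl9 less closely (0.713), and Ccl2 and Ccl12 do not (-0.133).

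The genes most like the other members by the same measure were mostly of no shared family. For Ccl3 they were A4galt (r = 0.922), Prpsap2 (0.912) and Slc12a9 (0.903), for Ccl4 Slc35f6 (0.964), Wdr46 (0.933) and Pold2 (0.927), and for Ccl6 Nsmce2 (0.879), Mycbp (0.876) and Tfb2m (0.871). For Ccl9 they were Prorsd1 (0.858), Vamp3 (0.840) and Vangl1 (0.831), and for Ccl12 Mrpl33 (0.958), Ndufb11 (0.945) and Rpl35 (0.943). For Cxcl16 they were Kcnj12 (0.944), Mthfsd (0.907) and Slc2a8 (0.898), and for Cmklr1 Rnf111 (0.904), Ctsl (0.894) and Slc16a13 (0.890). After Ccl7, Ccl2 was followed by Mettl25 and Rasgrp4, both at 0.901. The highest r of 11602 genes over 14 libraries is large by selection alone, so these values are a description.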

How the data were processed

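Poly(A) RNA of TRAP and total lysate from motor cortex was sequenced in 28 libraries. The authors deposited unnormalised read counts for each gene symbol. Per the submitters' processing notes, STAR 2.7.7a, featureCounts, DESeq2 and the GRCm38 build were used. For annotation, strand setting, multimapping and mate counting the sources used here give nothing. Of the counts of the members above 0, 73.3% were even, so mates may have been counted singly, and intervals from counts would then be too narrow. Columns without a cohort mark were taken as cohort 1, whose titles they match, and 0 columns belonged to no sample.

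The members and gene lists were chosen with earlier results of these data known. Each comparison used the quasi-likelihood test of edgeR 4.0.16 with TMM scaling, filterByExpr and Benjamini-Hochberg adjustment over all genes at 0.05, with cohort as a covariate, run in R 4.3.3. Run and home cage were compared within a fraction, and the fractions over all libraries. Each mouse gave 1 library per fraction, so p-values within a fraction measure the spread between mice. Main tests over both fractions held no term for the mouse, so the 2 libraries of a mouse were treated as independent there. The scripts were tested on simulated data. Alternatives were DESeq2 (1.42.0), its size factors, library totals, no filter, no cohort term, a sex term, each cohort or activity alone, a mouse block, and leaving out mice. Correlations used log2(CPM + 0.1) and 100000 permutations within cohort and activity.

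The genes named were all 9 members, from each chemokine system list the 3 highest and 3 lowest called folds of TRAP over lysate, the 3 smallest p and every called gene in the run comparisons, and the 3 genes most like each member in TRAP, searched among genes averaging log2 CPM 1 or more. Some ligand and receptor partners were added, and 1 gene is not reported here. Titles pair TRAP and lysate of a mouse. Over 14921 genes, r between a mouse's 2 libraries (as deviations from the group mean) ranged from -0.255 to 0.212 and passed 0.1 in 4 of 14 mice. No 2 libraries of a group agreed within sampling noise (lowest chi-square per degree of freedom 69.6). Chemokine coding sequences come from GENCODE M21 and promoters from RefSeq, which held 6 of 9 members.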

Additional observations from a re-analysis of the deposited data

Results flagged for a closer look

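Of 36 sets of 7 libraries (9 members in 4 groups), 2 held a library far from the others, and chance flags about 1 in 20 such groups. In run TRAP the library labelled Female2 of cohort 1 had a Ccl2 level of 34.7 CPM, with the other 6 at 0.802 to 3.41. In home cage lysate the library labelled Male1 of cohort 1 had a Ccl3 level of 0.732 CPM (71 reads), with the other 6 at 0 to 0.208.

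The TRAP over lysate ratio differed between cohorts for Ccl6, by a log2 difference of 0.922 (edgeR adjusted p = 0.00426), and for Ccl9, by 1.193 (adjusted p = 0.00958), tested as an interaction of fraction and cohort. These were 2 of 9 members, beside 20.3% of the 16880 genes tested, so the share among members was near that of all genes. In both cohorts the levels of Ccl6 and Ccl9 were higher in TRAP than in lysate.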

How the results depend on the processing

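The count of members called in TRAP against lysate was 8 to 9 over 25 alternatives, and 9 throughout when each mouse was left out. In the run comparisons and their difference between fractions it was 0 under every alternative run, also when each mouse was left out (range 0 to 0). The number of genes called over the whole table was less steady. In TRAP run against home cage it was 7 by edgeR and 40 higher and 12 lower by DESeq2, 0 without a cohort term and 0 within either cohort. In lysate it was 5 by edgeR and 33 higher and 17 lower by DESeq2, and 0 without the 2 mice with a label mismatch. For the difference between fractions DESeq2 called 34 higher and 15 lower, beside 0. Over library totals without TMM, 3903 genes were called higher and 9488 lower in TRAP against lysate, beside 5679 and 6698, and all 9 members kept their direction.

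For the cohorts within a fraction, a comparison added after the data were seen, home cage libraries alone gave 3 members called in TRAP and 3 in lysate, beside 5 and 5, and lysate without the 2 mice with a label mismatch gave 3. Fewer libraries entered these fits. Of 51 values of single members in this cohort comparison, 40 stayed the same, 7 lost a call, 1 gained a call and 3 moved by more than 1 SE. Of 902 values of single members or pairs in the other comparisons, 869 kept their side of the threshold, and those not called stayed within 1 SE. A further 29, none called, moved by more than 1 SE or, for correlations, changed sign, 2 lost and 2 gained a call, and 0 called values reversed. Of these 902, the 2 lost calls were Cxcr4 in TRAP against lysate, in cohort 1 alone and in home cage libraries alone. Ccl12 gained its call in the ratio between cohorts under DESeq2 size factors (1.03, edgeR adjusted p = 0.0476). With the replicate block on the mouse, 9 members were called in TRAP against lysate, 0 in the difference of the run effect and 3 in the ratio between cohorts, the third being Ccl12, and it changed no other call.

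Depth limits the lysate values of Ccl2, Ccl3, Ccl4, Cmklr1 and Cxcr4, and the TRAP values of Cxcr4, where single libraries held few reads.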
